A study of Mus musculus with 30 samples.

Results

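The ionotropic receptor genes for GABA and glutamate were followed in the hypothalamus of mice that carry a human stretch of the clock gene Per3. Members were chosen by gene symbol alone: every non-control probe whose symbol began with Gabr, or with Gria, Grik, Grin or Grid and a digit. This rule found 37 of the 28146 gene names on the array, read by 72 probes. Of these, 18 are GABAA receptor subunits with 33 probes and 18 are ionotropic glutamate receptor subunits with 38 probes. The remaining name, Grid2ip, was caught by the rule but encodes a scaffold protein of glutamate synapses, so 36 of the 37 are subunits. For 64 probes of 34 genes the signal was well above background on at least 50% of the arrays of a genotype, and these were tested.

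All 30 mice were young adult males of the C57BL/6 strain, and each gave 1 array. Of these, 7 were Per3 5/5 (called Boxhill in the labels), 15 were wild-type (WT) and 8 were Per3 4/4 (Coach). Both knock-in lines had the mouse Per3 sequence around a repeat region replaced by the human sequence, with 5 or 4 copies of the repeat. The knock-in and WT mice descended from a conditional line crossed to a mouse expressing Cre from a ubiquitous promoter, and the Cre was bred out afterwards, so WT mice share that ancestry and have mouse Per3 on both chromosomes. Every mouse lived under cycles of 3.5 h light and 3.5 h darkness and was sampled in the light phase of cycle 17. The arrays fell into 2 runs, told apart by the layout of the scanner output. It had 62 columns and the build mm9 in run 1, and 26 columns and the build mm8 in run 2. Run 1 held the Per3 5/5 mice and WT replicates 1 to 7, and run 2 held the Per3 4/4 mice and WT replicates 8 to 15. Each knock-in was therefore compared only with the WT mice of its own run, and the 2 comparisons share no array. A difference between the 2 effects cannot be told apart from a difference between the runs in how they measured an effect.

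Both receptor families are channels built from subunits, and the subunits chosen decide how a channel behaves. GABAA receptors let chloride through and are the main fast inhibitory receptors of the brain. They usually join alpha and beta subunits with a gamma or a delta subunit, and hypnotics such as benzodiazepines act on those with a gamma subunit. Glutamate opens AMPA and kainate receptors, which carry fast excitation, and NMDA receptors, which also need a coagonist and release from magnesium block and let calcium in. In the hypothalamus both transmitters act on nearly all neurons, including those of the suprachiasmatic nucleus and the sleep- and wake-active groups.

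Levels are given as log2 of the scanner's processed signal minus the 75th percentile of the same array, so 0 is that percentile. The percentile itself ran from 347 to 1546 intensity units, and 58.6% to 74.6% of probes on an array were well above background. A level compares mice for 1 probe and does not rank one subunit over another. Of a list of hypothalamic neuron markers 20 of 22 genes were measured. Their mean was 0.65 ± 0.37 (SD, n = 7) in Per3 5/5 mice and 0.38 ± 0.31 (SD, n = 7) in their WT mice. Thalamic markers were at 0.58 ± 0.22 and 0.43 ± 0.20 (SD) in these groups, and at 0.28 ± 0.65 and 0.04 ± 0.97 (SD) in Per3 4/4 mice and their WT mice. Such levels do not by themselves show which region the tissue held. In run 2 the hypothalamic means were 1.17 ± 0.51 (SD, n = 8) in Per3 4/4 mice and 0.85 ± 1.01 (SD, n = 8) in WT mice, or 1.15 ± 0.61 (SD, n = 7) without WT replicate 10. That mouse stood apart, with the lowest hypothalamic (-1.23) and thalamic (-1.67) marker level of its group and the highest striatal level (0.90). Thus several values of Per3 4/4 mice are also given without that mouse. The thalamic mean of the WT mice of run 2 was then 0.28 ± 0.73 (SD, n = 7). In a dissected block, fewer cells of a type and less RNA per cell cannot be told apart.

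Probes that had an unadjusted p under 0.05 in Per3 5/5 mice, all on the minus strand, are shown by their first 30 bases of 60, so that a reader can see which transcript stretch was measured. Positions are those of the array files for the mouse build mm9.

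Gabra2, chr5:71350022-71350081: taatgacattatgataagttagacgtccca

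Gria4, chr9:4502385-4502444: ttgaccactatggacgtagagttaattaca

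Grik2, chr10:48820299-48820358: aaatgtaatgcaaaacatatcagtattcaa

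Grin2b, first probe, chr6:136122961-136123020: gctctgcaaagagtcgtagtgaacttccca

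Grin2b, second probe, chr6:135681653-135681712: aaggtgtttatctaaggaaggccattgaac

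No receptor subunit passed the test in either knock-in line. With limma and Benjamini-Hochberg adjustment over 29947 probes, 0 of 64 member probes passed in Per3 5/5 mice, where 0% of all probes passed, and the smallest adjusted p of a member was 0.796. In Per3 4/4 mice 0 of 64 passed against 0.0134% of all probes, with a smallest adjusted p of 1.000. The difference between the 2 effects passed for 0 of 64 members and for 0% of all probes. At an unadjusted p under 0.05, Per3 5/5 mice had 4 member probes higher, where 3.43% of all probes were called, and 3 lower, where 2.74% were called. Those shares, 6.25% and 4.69% of the members, are somewhat above the background and rest on few probes. Per3 4/4 mice had 0 higher and 0 lower, with 0.985% and 0.748% of all probes called. For the difference between the effects, 2 members were called higher in Per3 5/5 mice, against 1.33% of all probes, and 0 lower, against 1.65%.

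The members moved both ways. In Per3 5/5 mice 32 probes had a fitted change above 0 and 32 below it, with a median of 0.003 on the log2 scale beside -0.02 over all probes tested. In Per3 4/4 mice 27 were above 0 and 37 below, with a median of -0.035 beside 0.006. No member separated its knock-in mice fully from the WT mice of the run: 0 of 64 did so in each line, where 0.174% of all probes did in run 1 and 0.0134% in run 2. The rank product that the study's methods name called 1 of 63 members in Per3 5/5 mice, a Gabra2 probe, where it called 1.06% of all probes, and 0 of 63 in Per3 4/4 mice, where it called 0.151%. The 95% interval of the change lay within 2-fold either way for 50 of 64 members in Per3 5/5 mice and for 58 of 64 in Per3 4/4 mice. Within 1.5-fold the counts were 29 and 39, so smaller changes of many subunits were not detectable with this number of arrays and this spread. The spread of a probe was estimated over both runs together, so the intervals of each line also carry the spread of the other run.

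**Figure D1:**
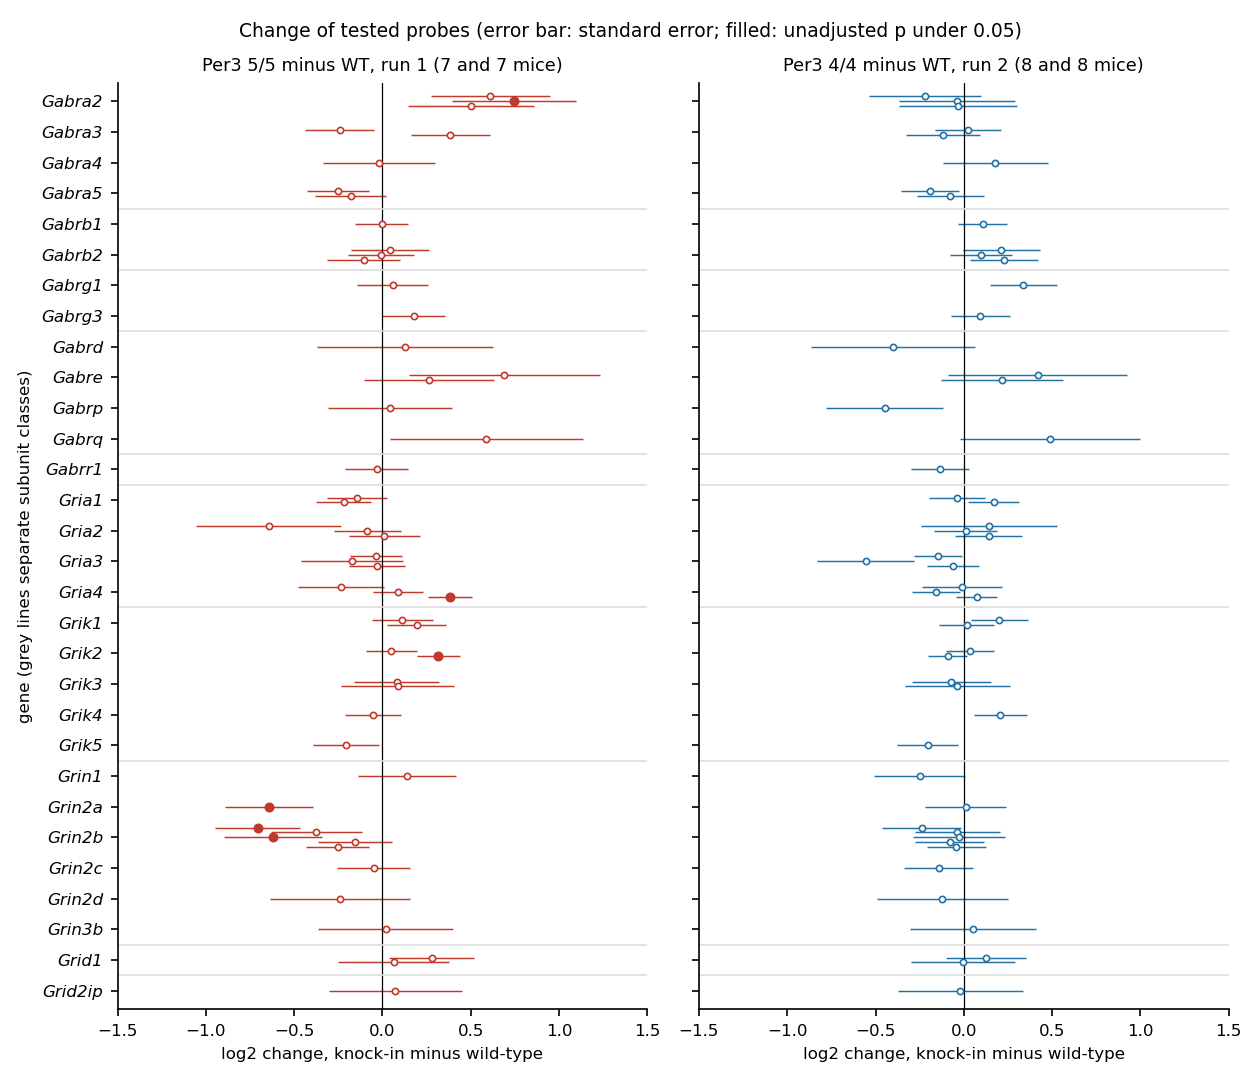
Fitted log2 change of 52 tested member probes against the WT mice of the run, by gene, with standard errors as bars, for Per3 5/5 (left) and Per3 4/4 mice (right); filled points had an unadjusted p under 0.05, and grey lines part the receptor classes. Filled points are found in Per3 5/5 mice alone, with Gabra2 highest at 0.74 and Grin2b lowest at -0.71.

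Among the GABAA alpha subunits, which shape the benzodiazepine site and the place of the receptor on the cell, 6 of 11 probes were above 0 and 5 below in Per3 5/5 mice (median change 0.13). Gabra2, which encodes alpha-2, stood highest of all members. Its first-shown probe was at -0.33, -0.20 and 0.81 (lowest, median and highest) in Per3 5/5 mice and at -1.40, -0.79 and 0.71 in WT mice. All 7 Per3 5/5 mice were above the WT median, yet the ranges overlapped, since WT replicates 1 and 7 lay above the lowest Per3 5/5 mice. The fitted Gabra2 change was 0.74 ± 0.35 (SE), with p = 0.0429 in limma before adjustment and an adjusted p of 0.796. A second Gabra2 probe changed by 0.61 (p = 0.0811 in limma) and the remaining one by 0.50 (p = 0.169 in limma), and on each of them all 7 Per3 5/5 mice were also above the WT median. Arrays of a run with the same recorded scan time were taken as a slide. In run 1 some slides held a lone mouse of a genotype, so a difference within a slide rests on few mice. On the first-shown probe the Gabra2 difference within a slide was above 0 on 3 of 4 slides and ran from -0.04 to 1.45. The 3 Gabra2 probes changed in Per3 4/4 mice by -0.04, -0.22 and -0.03, or by 0.10, -0.17 and -0.004 without WT replicate 10. The difference between the 2 effects was 0.78 ± 0.48 (SE) for the first-shown probe, with p = 0.114 in limma.

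Other alpha subunits moved less. Gabra5, a subunit of extrasynaptic receptors best known from the hippocampus, was at -0.25 and -0.18 in Per3 5/5 mice and at -0.19 and -0.08 in Per3 4/4 mice, or -0.09 and 0.07 without WT replicate 10. Gabra4, which forms extrasynaptic receptors with delta, changed by -0.02 and 0.18. Both Gabra3 probes tested disagreed in Per3 5/5 mice, at -0.24 ± 0.20 (SE) and 0.38 ± 0.22 (SE), so no direction is given for that subunit. Another Gabra3 probe was not well above background on any array.

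The beta subunits bind GABA together with alpha and are needed for a working channel. Gabrb1 changed by -0.004 and 0.11 in the 2 lines, the latter being 0.003 without WT replicate 10. Gabrb2 probes ran from -0.11 to 0.04 in Per3 5/5 mice and from 0.10 to 0.23 in Per3 4/4 mice, and 1 of them lacked a value on 2 arrays of run 2 where the spot was marked as an outlier. None of these beta probes had p under 0.05 in limma in either line.

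Gamma subunits anchor receptors at synapses. Gabrg1 changed by 0.06 in Per3 5/5 mice and by 0.34 in Per3 4/4 mice (p = 0.0835 in limma; 0.23 without WT replicate 10), and Gabrg3 by 0.18 and 0.09.

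The delta, epsilon, theta and pi subunits take the place of gamma and form receptors with distinct pharmacology, and epsilon and theta are known for their expression in hypothalamus and brainstem. Gabrq, Gabre and Gabrd held the largest spreads between mice of 1 group among the 64 member probes. The pooled SD within groups was 1.08 for Gabrq (theta), 1.07 for a Gabre probe (epsilon) and 0.98 for Gabrd (delta), against a median of 0.39 over the members and 0.34 over all probes. Gabrq was at -3.92, -3.77 and -2.52 in Per3 5/5 mice and at -5.30, -3.83 and -3.20 in WT mice, a change of 0.59 ± 0.55 (SE). In run 2 it was at -3.38, -2.35 and -0.70 in Per3 4/4 mice and at -6.27, -2.32 and -0.97 in WT mice. The 2 medians nearly coincided, and the lowest WT value was that of replicate 10. The fitted Gabrq change in Per3 4/4 mice, 0.49 ± 0.51 (SE) and the highest of any member in that line, fell to -0.03 without that mouse.

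Gabrd, part of the extrasynaptic receptors that carry tonic inhibition, differed more among the mice of run 2 than between their genotypes. It was at -0.33, 3.00 and 3.85 in Per3 4/4 mice and at 1.19, 2.78 and 3.52 in WT mice. Per3 4/4 replicates 5, 7 and 8 were at 0.61, -0.33 and 0.55 and the other 5 Per3 4/4 mice at 2.92 or higher, so the Gabrd change of -0.40 ± 0.47 (SE) did not exceed the spread. In run 1 Gabrd was at 2.38, 3.22 and 3.47 in Per3 5/5 mice and at 2.71, 2.97 and 3.46 in WT mice, a change of 0.13 ± 0.50 (SE). Both Gabrd SEs rest on a spread shared by the runs, although the mice of run 1 ranged less. The more variable Gabre probe was not well above background on any of the 7 WT arrays of run 1, so no fold is given for it there; its change in Per3 4/4 mice was 0.42 ± 0.51 (SE) and 0.09 without WT replicate 10. The second Gabre probe changed by 0.26 in Per3 5/5 mice and by 0.22 in Per3 4/4 mice, which became -0.01 without WT replicate 10. Gabrp (pi) changed by 0.04 and -0.45, and Gabrr1 (rho-1, a subunit of GABA receptors best known from the retina) by -0.03 and -0.14. In run 2 the Gabrp probe was well above background on only 3 of the 8 Per3 4/4 arrays and 6 of the 8 WT arrays. Gabra6, a cerebellar granule cell subunit, and Gabrr2 were above background on too few arrays to be tested, 2 and 5 of the 30.

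**Figure D2:**
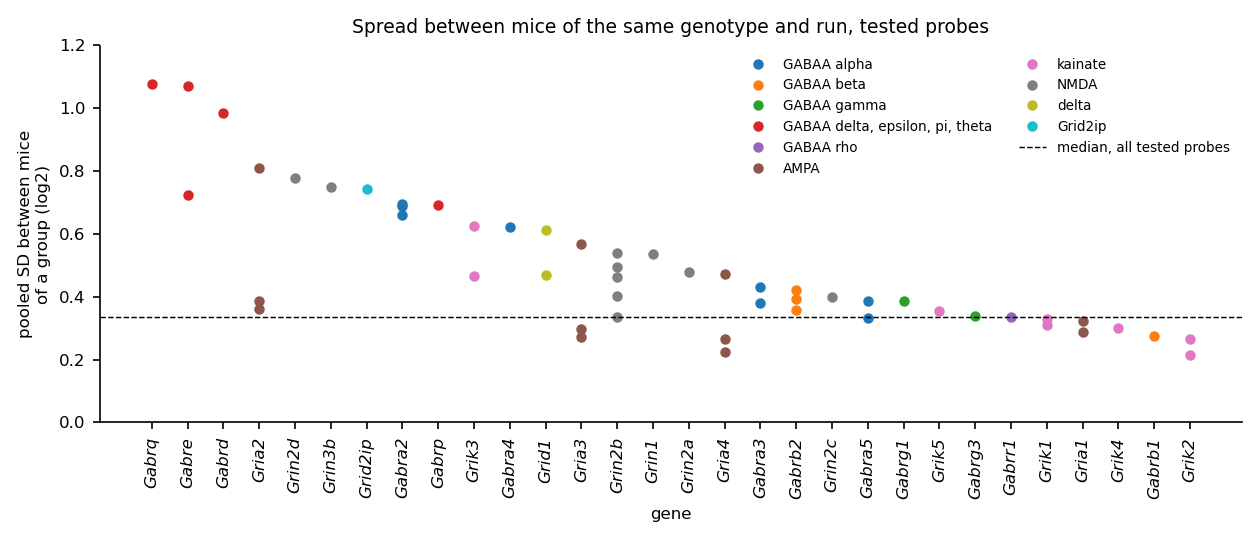
Pooled SD between mice of the same genotype and run, in log2 units, for 52 tested member probes by gene, coloured by receptor class, with the median over all tested probes (0.34) as a dashed line. Gabrq, a Gabre probe and Gabrd lie highest at 1.08, 1.07 and 0.98, and a Grik2 probe lies lowest at 0.21.

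The NMDA receptor subunits were below 0 on 8 of 10 probes in each line, and no probe passed adjustment. Their median change was -0.25 in Per3 5/5 mice and -0.06 in Per3 4/4 mice. Of the 10 probes 5 read Grin2b. Over all 29947 probes tested, 16314 were below 0 in Per3 5/5 mice and 14467 in Per3 4/4 mice. In Per3 5/5 mice the 3 lower member probes at an unadjusted p under 0.05 all belonged to Grin2a and Grin2b. These encode the glutamate-binding NR2A and NR2B subunits that set the kinetics of the channel. Grin2a was at -2.52, -1.70 and -1.51 (lowest, median and highest) in Per3 5/5 mice and at -1.95, -1.24 and -0.71 in WT mice. All 7 Per3 5/5 mice were below the WT median, with overlapping ranges. The change was -0.64 ± 0.25 (SE), with p = 0.0142 in limma and an adjusted p of 0.796. Within slides, each with few mice of a genotype, the Grin2a difference was below 0 on 4 of 4 slides, from -0.77 to -0.33. Grin2a changed by 0.01 ± 0.23 (SE) in Per3 4/4 mice.

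Grin2b was read by 5 probes along its transcript, and all 5 were lower in Per3 5/5 mice. On the first-shown probe it was at -0.07, 0.65 and 0.93 in Per3 5/5 mice and at 0.72, 1.30 and 1.68 in WT mice. Here 6 of 7 Per3 5/5 mice lay below every WT mouse, the nearest that an NMDA probe came to separate groups. This Grin2b change was -0.71 ± 0.24 (SE), the lowest of any member, with p = 0.00615 in limma and an adjusted p of 0.796. On the second-shown probe Grin2b was at 0.24, 1.66 and 1.93 in Per3 5/5 mice and at 1.04, 2.08 and 2.30 in WT mice, a change of -0.62 ± 0.28 (SE) with p = 0.0332 in limma. The other 3 Grin2b probes changed by -0.37, -0.25 and -0.16, each with p over 0.05 in limma, and on every one of the 5 probes all 7 Per3 5/5 mice were below the WT median. Every one of the 5 was also below 0 on 4 of 4 slides. In Per3 4/4 mice the 5 Grin2b probes changed by -0.24 to -0.03, or from -0.08 to 0.05 without WT replicate 10. The difference between the effects was -0.47 ± 0.33 (SE) for the first-shown probe, with p = 0.163 in limma. Without WT replicate 10 that difference was -0.67 (p = 0.0189 in limma) and the Grin2a difference, -0.65 ± 0.34 (SE) with all mice, was -0.72 (p = 0.0447 in limma). Each then had an adjusted p of 0.986 in limma. Leaving out that mouse, 5 of 64 members had an unadjusted p under 0.05 for the difference, probes of Gria1 and Gria2 among them, where 4.23% of all probes did.

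Markers of the cortex and hippocampus also had a lower mean in Per3 5/5 mice than in the WT mice of run 1. All 15 marker genes were measured, and the mean level of their 22 probes was -1.76 ± 0.21 (SD, n = 7) in Per3 5/5 mice, from -1.99 to -1.38, and -1.34 ± 0.40 (SD, n = 7) in WT mice, from -1.88 to -0.84. Of the 22 probes 3 were lower at an unadjusted p under 0.05 and 0 higher, where 2.74% and 3.43% of all probes were called. A list of activity-regulated genes was at -1.29 ± 0.25 (SD, n = 7) against -0.82 ± 0.37 (SD, n = 7). Of its 17 probes 0 were above 0, and 4 were lower at an unadjusted p under 0.05. Choroid plexus markers were at -2.69 ± 0.80 (SD, n = 7) against -2.03 ± 0.31 (SD, n = 7), with 1 of 18 probes above 0 and a median change of -0.70. The part of any of these lists in the Grin2a and Grin2b values was not tested. In run 2 the cortical markers were at -2.24 ± 0.41 (SD, n = 8) in Per3 4/4 mice and -2.17 ± 0.25 (SD, n = 8) in WT mice. The activity-regulated genes there were at -1.55 ± 0.23 (SD, n = 8) and -1.21 ± 0.88 (SD, n = 8), the WT mean being -1.505 ± 0.305 (SD, n = 7) without WT replicate 10.

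The obligatory NMDA subunit, Grin1, changed by 0.14 ± 0.28 (SE) in Per3 5/5 mice and by -0.25 in Per3 4/4 mice. Grin2c, best known from the cerebellum, changed by -0.05 and -0.14, and Grin2d, prominent early in development, by -0.24 and -0.12. Grin3b, a glycine-binding subunit of motor neurons, changed by 0.02 and 0.05, the latter being -0.17 without WT replicate 10. Its relative Grin3a was not well above background on any array.

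**Figure D3:**
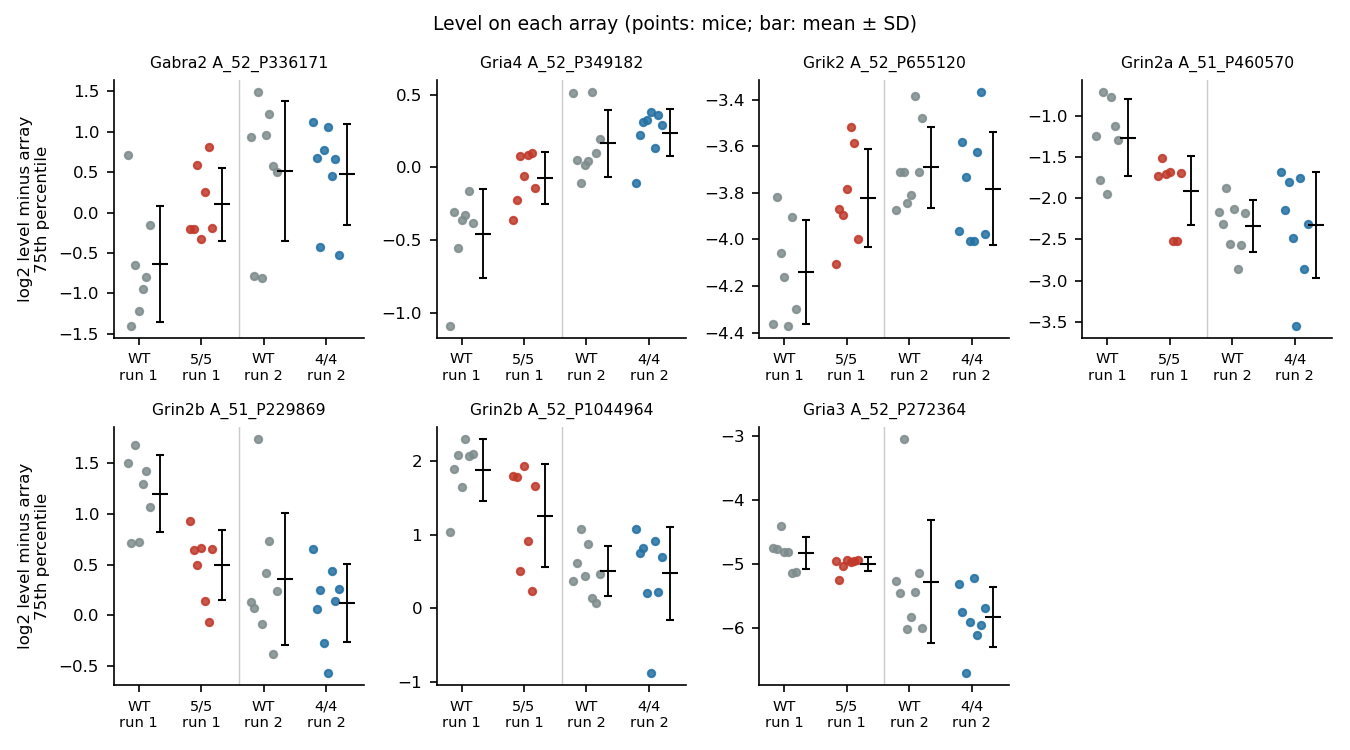
Level in each mouse (log2 signal relative to the array's 75th percentile) for member probes with an unadjusted p under 0.05 in Per3 5/5 mice and the Gria3 probe with the smallest p in Per3 4/4 mice, with the mean and SD of each group as bars. In run 1 all 7 Per3 5/5 mice lie below the WT median for Grin2a and both Grin2b probes and above it for Gabra2 and Grik2, with overlap in each, and in run 2 the genotypes overlap throughout.

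Among the AMPA receptor subunits, 8 of 11 probes were below 0 in Per3 5/5 mice (median change -0.09). The exception with the smallest p of all members was a probe of Gria4, which encodes the fast-gating GluA4 subunit. It was at -0.36, -0.06 and 0.10 in Per3 5/5 mice and at -1.09, -0.36 and -0.16 in WT mice. Of the Per3 5/5 mice, 5 of 7 were above every WT mouse, and the lowest WT value stood away from the rest. The Gria4 change on this probe was 0.38 ± 0.12 (SE), with p = 0.00474 in limma and an adjusted p of 0.796, and it was above 0 on 4 of 4 slides. The other 2 Gria4 probes tested changed by -0.23 and 0.09, so the 3 probes did not share a direction. They changed by 0.07, -0.01 and -0.16 in Per3 4/4 mice.

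Gria3, encoding GluA3, held the lowest change in Per3 4/4 mice. That probe was at -6.71, -5.84 and -5.23 in Per3 4/4 mice and at -6.03, -5.45 and -3.05 in WT mice, and it stood clear of background on 4 of the 8 arrays of Per3 4/4 mice and on 5 of the 8 arrays of WT mice. The high WT value was that of replicate 10. The Gria3 change was -0.56 ± 0.27 (SE) with p = 0.0504 in limma, and -0.24 (p = 0.169) without that mouse. The other 2 Gria3 probes changed by -0.15 and -0.06 in that line and by -0.04 and -0.03 in Per3 5/5 mice. Gria1, encoding GluA1, which is inserted at synapses during plasticity, was at -0.15 and -0.22 in Per3 5/5 mice and at -0.04 and 0.17 in Per3 4/4 mice. Gria2, the subunit that makes AMPA receptors nearly impermeable to calcium, differed by probe in Per3 5/5 mice, at -0.65 ± 0.41 (SE), -0.09 and 0.01, and was at 0.14, 0.01 and 0.14 in Per3 4/4 mice, or 0.43, 0.13 and 0.25 without WT replicate 10.

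Kainate receptor subunits, which act before and after the synapse, were above 0 on 6 of 8 probes in Per3 5/5 mice (median change 0.08). Grik2, encoding GluK2, was at -4.11, -3.87 and -3.52 in Per3 5/5 mice and at -4.37, -4.16 and -3.82 in WT mice. All 7 Per3 5/5 mice were above the WT median and 3 above every WT mouse. In run 2 Grik2 was at -4.01, -3.85 and -3.37 in Per3 4/4 mice and at -3.87, -3.71 and -3.38 in WT mice, where 4 of 8 Per3 4/4 mice lay below every WT mouse and 1 above every one. The Grik2 change on this probe was 0.32 ± 0.12 (SE) in Per3 5/5 mice (p = 0.0135 in limma, adjusted p = 0.796), above 0 on 4 of 4 slides, and -0.09 ± 0.11 (SE) in Per3 4/4 mice. The difference between the effects was 0.41 ± 0.16 (SE), with p = 0.0193 in limma and an adjusted p of 1.000. The other Grik2 probe changed by 0.05 and 0.04. Grik1 (GluK1) changed by 0.11 and 0.19 in Per3 5/5 mice, Grik3 (GluK3) by 0.08 and 0.09, and the high-affinity subunits Grik4 and Grik5 by -0.05 and -0.21. The same 6 probes lay between -0.21 and 0.21 in Per3 4/4 mice, and Grik4, highest at 0.21, was at 0.07 without WT replicate 10.

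Grid1, an orphan relative that binds cerebellins and holds synapses together more than it conducts, changed by 0.28 and 0.06 in Per3 5/5 mice and by 0.12 and -0.01 in Per3 4/4 mice, or 0.06 and -0.15 without WT replicate 10. Grid2ip changed by 0.07 and -0.02, the latter being -0.22 without that mouse.

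Genes that work with these receptors were read from 8 lists with 171 probes tested. None passed adjustment in limma in either line. At an unadjusted p under 0.05, 7 of 171 were higher and 5 lower in Per3 5/5 mice, near the 3.43% and 2.74% of all probes called, and 0 in Per3 4/4 mice, where 0.985% and 0.748% were called. The groups of run 1 did not overlap for 4 of the 171 probes, those of Camk2b and Glrb described here and 2 of Slc17a6 (singled out after their values were seen), where 0.174% of all probes separated. All 5 lower probes belonged to the 38 of the excitatory scaffold list, whose median change was -0.19 beside -0.02 over all probes. Camk2b, the beta subunit of the calcium-dependent kinase that phosphorylates AMPA and NMDA receptors, was at 4.76, 4.86 and 5.10 in Per3 5/5 mice and at 5.18, 5.26 and 5.43 in WT mice, a change of -0.36 ± 0.13 (SE) with p = 0.0106 in limma. Of 28 probes for auxiliary subunits and synaptic partners of glutamate receptors 2 were higher and 0 lower. The Cbln4 probe with the smallest p, for a secreted cerebellin, was at -1.13, -0.83 and -0.26 in Per3 5/5 mice and at -1.65, -1.39 and -1.02 in WT mice, a change of 0.57 ± 0.18 (SE) with p = 0.00346 in limma. That Cbln4 probe had medians in Per3 4/4 mice and their WT mice of -0.66 and -0.69.

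On the inhibitory side, 2 of 6 glycine receptor probes were higher in Per3 5/5 mice and 0 lower. Glrb, the beta subunit that ties glycine receptors to gephyrin, was at 2.13, 2.22 and 2.47 in Per3 5/5 mice and at 1.89, 2.01 and 2.08 in WT mice. Its change was 0.28 ± 0.11 (SE), with p = 0.0217 in limma and an adjusted p of 0.796. Among 15 probes for metabotropic GABA receptors and their partners 1 was higher, Kctd8, a partner of GABAB receptors, at 0.51 ± 0.21 (SE) with p = 0.0216 in limma. Of 13 metabotropic glutamate receptor probes 1 was higher, Grm8, a presynaptic receptor, at 0.39 ± 0.16 (SE) with p = 0.0193 in limma. Among 26 probes for the inhibitory scaffold and chloride transport 1 was higher, Gabarapl1, a relative of the GABAA receptor-associated protein, at 0.36 ± 0.17 (SE) with p = 0.0474 in limma. None of 14 probes for making, packing and carrying GABA and none of 31 for glutamate had p under 0.05 in limma in Per3 5/5 mice. The smallest were 0.0635 for Gad2, which makes GABA, at -0.26, and 0.0504 for Slc1a3, the glial transporter, at -0.55. In Per3 4/4 mice the largest of these best changes was that of Slc17a7, a vesicular glutamate transporter of cortical neurons. The Slc17a7 change was -1.12 ± 0.60 (SE) with p = 0.0698 in limma. Its level was at -5.22, -1.46 and 0.09 (lowest, median and highest) in Per3 4/4 mice and at -2.05, -1.04 and 1.40 in WT mice.

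Subunits varied from mouse to mouse together with markers of brain regions. For each of 34 member genes the deviation of a mouse from its group mean was set against that of 5 regional marker lists over the 30 mice, a comparison chosen after the values had been seen. Of these 170 relations 12 were positive and 7 negative after Benjamini-Hochberg adjustment of permutation tests that moved mice only within groups. The mice of a run share slides, and WT replicate 10 lies far out on several lists. The levels of a gene and of a marker list come from the same array.

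With the hypothalamic neuron markers, Gabrq had r = 0.89 and rho = 0.87 over 30 mice (permutation p = 1e-05 for both, the smallest that these permutations can give; adjusted p = 0.000567 and 0.00085). Without the 2 mice farthest out on the marker list r was 0.83, within run 1 it was 0.68 and within run 2 it was 0.93. Gabre followed with r = 0.81 and rho = 0.79 (permutation p = 1e-05 and 2e-05, adjusted p = 0.000567 and 0.00113), 0.71 without the 2 farthest mice, 0.72 in run 1 and 0.82 in run 2. Gabrb1 had r = 0.75 and rho = 0.66 (permutation p = 0.00025 and 0.00045, adjusted p = 0.00586 and 0.0122), 0.59 without the 2 farthest mice, 0.61 in run 1 and 0.78 in run 2. The theta, epsilon and beta-1 genes thus rose and fell with the hypothalamic marker level in both runs. The Gabre value averages its probes, and the more variable one was well above background on 2 Per3 5/5 arrays and 0 WT arrays of run 1. The epsilon relation in run 1 therefore rests partly on signal near background.

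Other members ran the opposite way. Grin2c had r = -0.67 and rho = -0.64 with the hypothalamic markers (permutation p = 0.00031 and 0.00072, adjusted p = 0.00586 and 0.0122), -0.68 without the 2 farthest mice, -0.83 in run 1 and -0.64 in run 2. Gria3 had r = -0.84 and rho = -0.72 over all mice (permutation p = 0.00021 and 0.00051, adjusted p = 0.00586 and 0.0122) and -0.65 without the 2 farthest mice, but -0.24 in run 1 against -0.92 in run 2. That relation did not hold within run 1, and neither did those of Gria2 with the hypothalamic markers (0.07 in run 1), of Grik4 with the striatal markers (0.15 in run 1) and of Grin3b with the cerebellar markers (-0.07 in run 1).

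With the thalamic markers, Grid2ip had r = 0.91 and rho = 0.92 (permutation p = 1e-05 for both, adjusted p = 0.000567 and 0.00085), 0.91 without the 2 farthest mice, 0.58 in run 1 and 0.93 in run 2. Gabra4 had r = 0.65 and rho = 0.77 (permutation p = 0.00372 and 0.00012, adjusted p = 0.0395 and 0.0051), 0.70 without the 2 farthest mice, 0.87 in run 1 and 0.63 in run 2. Gabrd, its partner in extrasynaptic receptors of the thalamus, had r = 0.58 and rho = 0.68 (permutation p = 0.00545 and 0.00118, adjusted p = 0.0488 and 0.0167), 0.83 without the 2 farthest mice, 0.83 in run 1 and 0.57 in run 2. Per3 4/4 replicates 5, 7 and 8, low for Gabrd, were also the lowest of their group on the thalamic list, by -0.95, -0.88 and -0.44 from the group mean.

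With the markers of cortex and hippocampus, Grin2a had r = 0.69 and rho = 0.60 (permutation p = 0.00026 and 0.00072, adjusted p = 0.00586 and 0.0122), 0.59 without the 2 farthest mice, 0.74 in run 1 and 0.66 in run 2. The Grin2b relation did not pass, at r = 0.52 and rho = 0.48 (permutation p = 0.00748 and 0.00774, adjusted p = 0.0606 and 0.058), 0.33 without the 2 farthest mice, 0.22 in run 1 and 0.73 in run 2. Gabrg1 had r = -0.60 and rho = -0.60 (permutation p = 0.00041 and 0.00094, adjusted p = 0.00634 and 0.0145), -0.53 without the 2 farthest mice, -0.42 in run 1 and -0.71 in run 2.

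**Figure D4:**
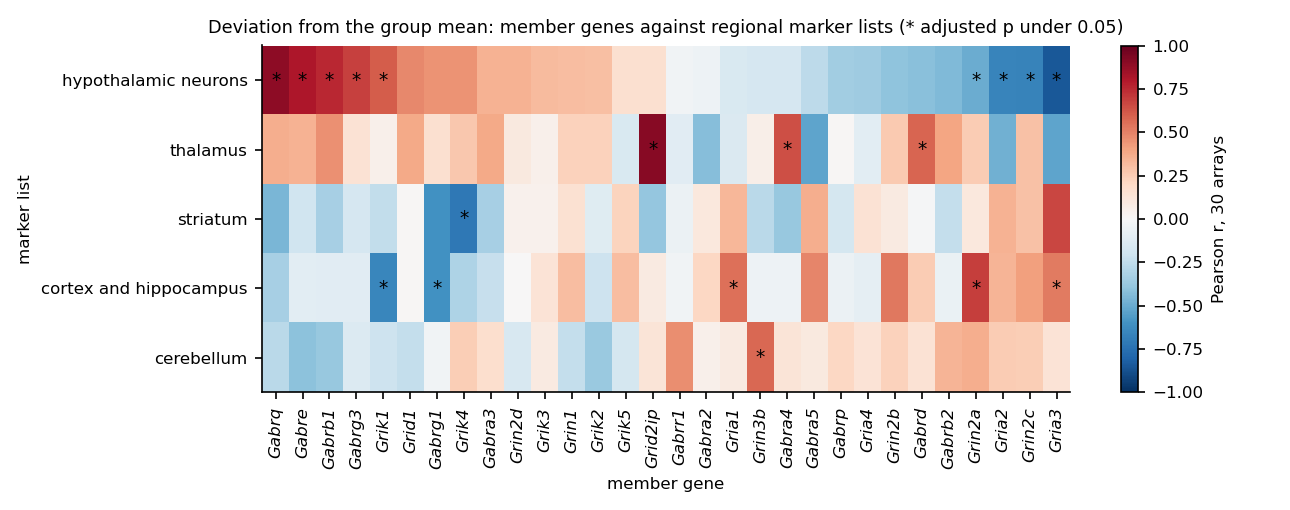
Pearson correlation across 30 mice between the deviation of 30 member genes from the group mean and that of 5 regional marker lists. Gabrq, Gabre and Gabrb1 reach 0.89, 0.81 and 0.75 with the hypothalamic neuron list, and Grid2ip reaches 0.91 with the thalamic list.

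**Figure D5:**
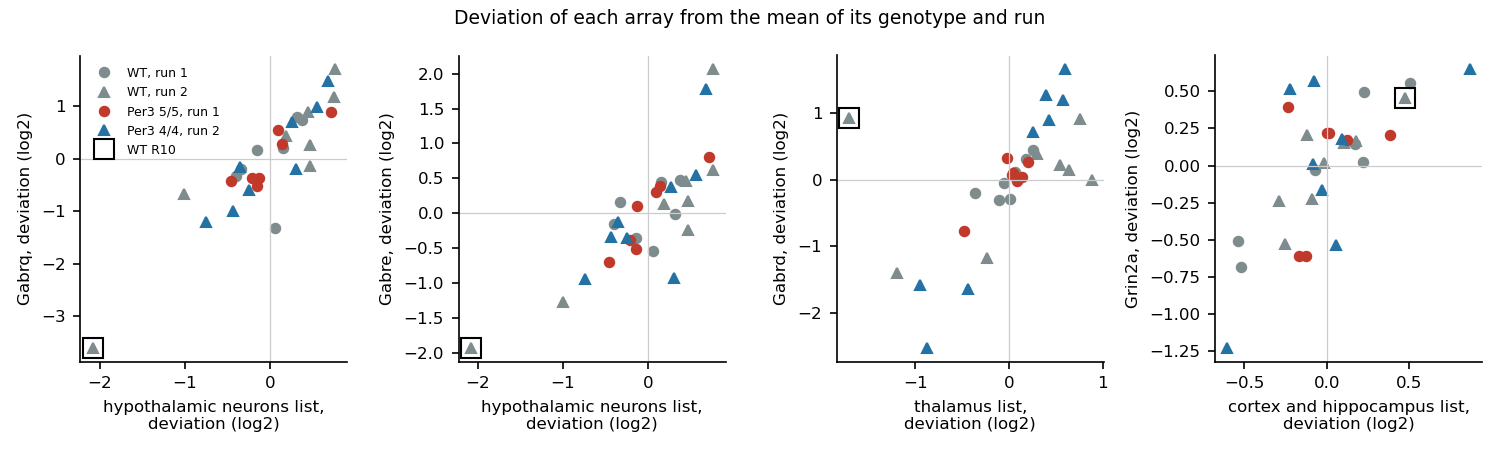
Deviation of each mouse from its group mean, in log2 units, for member genes against regional marker lists, by genotype and run. Gabrq rises with the hypothalamic markers (r = 0.89) and Grin2a with the cortical markers (r = 0.69), and WT replicate 10, boxed, is the mouse farthest out on the hypothalamic and thalamic lists.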

How the data were processed

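Hypothalamic RNA of 30 mice was measured on 1-colour Agilent 44K arrays, 1 mouse per array. The authors deposited scanner files of Feature Extraction 10.7.1.1, whose background-subtracted processed signal is an intensity, and a table of log2 values per run, used as an alternative only; per the methods, 1 Per3 5/5 and 1 WT array were left out by the authors for poor quality. Here control and outlier spots were dropped, spots of a probe averaged, and log2 signal centred on each array's 75th percentile. Probes well above background on at least 50% of the arrays of a genotype, with the WT arrays of both runs pooled, were kept. The 4 group means were fitted with limma 3.58.1 (R 4.3.3), which was used in place of the methods' t-test. All groups share the same estimate of a probe's spread, so each SE, p and interval also carries the spread of the other run. In all, 29947 probes were adjusted together by Benjamini-Hochberg. A rank product was run as the methods name it (false-positive share up to 0.015, 100 permutations). On data simulated for 29817 probes with 1 common spread it recovered 200 of 200 changed probes with 0 false calls; with the real unequal spreads it made 105 false calls. Correlations used scipy 1.17.1 and 1e+05 permutations. Named members were those with an unadjusted p under 0.05, the highest and lowest change in each comparison, the 5 largest SDs, and genes whose probes disagree. Members and lists were chosen with earlier results of these data known. Alternatives were the background correction, scaling, filter, slide or replicate number as a block, array weights, the t-test, and leaving out each mouse. Some members and 1 probe sequence count in the totals but are not reported here. The number of arrays limits the precision.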

Additional observations from a re-analysis of the deposited data

Results flagged for a closer look

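In groups of 7 or 8 mice, single values that stood far from the rest of their group were sought for 20 named member probes in 4 groups each. Of these 80 groups 6 had one, and chance gives about 1 in 20. WT replicate 10 accounted for 2 of them: Gabrq at -6.27 with the other WT mice of run 2 at -3.33 to -0.97, and Gria3 at -3.05 with the others at -6.03 to -5.15. The same mouse had the lowest level of the hypothalamic neuron markers (-1.23) and the highest of the striatal markers (0.90) in its group, and the part of tissue content in these values was not tested. Among Per3 5/5 mice, Gabrd was at 2.38 in replicate 6 with the others at 3.13 to 3.47, and the same Gria3 probe at -5.25 in replicate 2 with the others at -5.04 to -4.94. Gria4 was at -1.09 in WT replicate 1 with the others of run 1 at -0.55 to -0.16. The second-shown Grin2b probe was at -0.88 in Per3 4/4 replicate 5 with the others at 0.21 to 1.08.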

How the results depend on the processing

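No member passed adjustment in any limma setting or in the methods' t-test, and leaving out 1 mouse left the count at 0 in all 3 comparisons; the rank product called 1 Gabra2 probe in Per3 5/5 mice. The medians over the members ran from -0.08 to 0.05 over all settings and comparisons. At an unadjusted p under 0.05, the 7 members of Per3 5/5 mice (6.17% of all probes) became 13 in arrays of the run alone (10.9%), 11 with slide as a fixed block (13.4%), 15 with array weights (10.6%), 11 with the t-test (10.4%) and 15 with the rank product (12.0%), and ran from 4 to 9 as 1 mouse was left out, with 4 without Per3 5/5 replicate 3, 5 or 6. The 0 members of Per3 4/4 mice (1.73% of all probes) became 2 and 1 with slide as a random or fixed block (3.01% and 2.87%), 1 with another percentile (1.79%), 2 with array weights (5.42%) and 7 with the rank product (6.44%), and ran from 0 to 2 as 1 mouse was left out. In run 2, 8 arrays share slide barcodes although their data differ, so the slide block is uncertain there. The 2 members of the difference (2.98% of all probes) became 4 and 5 with slide as a random or fixed block (5.72% and 7.01%) and 6, all lower, with array weights (10.4%), and ran from 1 to 5, with 5 without WT replicate 10; with arrays of 1 run alone, the t-test or the rank product this difference was not run. Same-numbered mice of run 1 do not pair: their deviations correlated from -0.28 to 0.40, with 2 of 7 above 0.1, and 13 of 14 columns of the authors' table matched another array of the same group. The replicate block gave 16 members at an unadjusted p under 0.05 (11.6% of all probes) and 0 passing; Per3 4/4 mice share too few numbers with their WT mice for such a fit.

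In Per3 5/5 mice the signs of all Grin2a, Grin2b and Gabra2 probes held in 22 of the 22 alternatives that can move their fitted changes, while in Per3 4/4 mice those of Grin2b held in 13 of 22. These genes were named for their changes in Per3 5/5 mice, and the alternatives reuse the same mice. Held signs there are therefore no independent test. Values that changed sign were small or variable, and the cause was not tested. With array weights Gabra3 in Per3 5/5 mice went from -0.24 to 0.081, and Gabrd in Per3 4/4 mice from -0.40 to 0.058. With normexp a Gria2 probe went from 0.01 to -0.026; with slide as a fixed block a Gria2 probe went from -0.09 to 0.019. Leaving out 1 mouse at a time, those Gria2 probes ran from -0.067 to 0.10 and from -0.21 to 0.0011, and Gabrq in Per3 4/4 mice from -0.026, without WT replicate 10, to 0.73. For named members, 1051 values under the alternatives kept their sign and their side of the threshold, and 12 changed sign.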

Other observations

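Pairs of member genes were also compared across the 30 mice by the same probe-averaged deviations from the group means, a comparison chosen after the values had been seen. Of 561 pairs 48 were positively and 17 negatively correlated after adjustment. Gabre and Gabrq, neighbours on the X chromosome, had r = 0.87 and rho = 0.89 (permutation p = 1e-05 for both, the smallest that can be had; adjusted p = 0.000935 and 0.00112), 0.83 without the 2 farthest mice, 0.75 in run 1 and 0.89 in run 2. Gabrb1, on another chromosome, had r = 0.85 and rho = 0.83 with Gabrq (permutation p = 1e-05 for both, adjusted p = 0.000935 and 0.00112), 0.84 without the 2 farthest mice, 0.80 in run 1 and 0.86 in run 2. Gabra4 and Gabrd had r = 0.84 and rho = 0.77 (permutation p = 1e-05 and 0.0001, adjusted p = 0.000935 and 0.00432), 0.75 without the 2 farthest mice, 0.69 in run 1 and 0.85 in run 2. Grin2a and Grin2b had r = 0.80 and rho = 0.78 (permutation p = 2e-05 and 1e-05, adjusted p = 0.0014 and 0.00112), 0.72 without the 2 farthest mice, 0.71 in run 1 and 0.86 in run 2. Grid1 and Grin1 had r = 0.87 and rho = 0.64 (permutation p = 1e-05 and 0.00041, adjusted p = 0.000935 and 0.0121), 0.76 without the 2 farthest mice, but 0.40 in run 1 and 0.93 in run 2. Lying close together did not by itself go with a high value: over the 15 pairs within 2 Mb of each other r ran from -0.22 to 0.87 with a median of 0.07, beside a median of 0.009 over the other 546 pairs. All values of a pair come from the same arrays. The Gabre values again include the probe that was near background in run 1.

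The clock motif CACGTG, which reads the same on both strands, was sought in RefSeq promoters of the build GRCm38.p6, from 250 bases before to 50 after a start. Of 37 member genes 25 had an entry, with 30 promoters, and 1 of the 30 held the motif, beside 7.15% of all 32851 promoters. It was that of Grin1, shown here with the motif in capitals, and the match describes letters only.

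Grin1, chr2:25319351-25319380, minus strand: agagtgcaggtgCACGTGgtgataagaaac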
